A study of Bos taurus with 6 samples.

Results

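The WNT pathway genes described here are 50 named genes that make, carry, receive, relay or read a WNT signal. They were taken from the deposited table by exact gene symbol, and 49 of the 50 had a row among 15314 named genes. PYGO2, a nuclear co-activator, had no row under that symbol and was not analysed here. The 49 rows fell into 11 ligands, 2 ligand secretion genes, 11 receptors and co-receptors, 3 secreted inhibitors, 2 membrane ubiquitin ligases, 5 dishevelled genes and antagonists, 8 genes of the destruction complex and its regulators, and 7 for beta-catenin and nuclear factors.

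The libraries came from in vitro fertilized cattle embryos (Bos taurus) collected on day 6 as late morulae, the compacted stage before the blastocyst cavity forms. All embryos had been injected with small interfering RNA (siRNA). One group received a nonspecific siRNA and served as the control, one received siRNA against the receptor gene NOTCH1, and one received siRNA against RBPJ, which encodes the DNA-binding protein of the NOTCH pathway. Each of the 3 groups had 2 libraries of polyadenylated RNA, and each library pooled 15 embryos, so a value is an average over whole embryos. In such pools fewer cells of a type and less RNA per cell cannot be told apart. The labels do not state that replicates were separate embryo collections; p-values therefore reflect only how far these libraries vary, and that variation may be technical.

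WNT proteins are lipid-modified by PORCN in the endoplasmic reticulum and carried to the surface by WLS. They bind frizzled (FZD) receptors together with LRP5 or LRP6, and the signal passes through dishevelled (DVL) proteins to the destruction complex of AXIN, APC, GSK3 and casein kinase 1. That complex otherwise marks beta-catenin, the product of CTNNB1, for degradation. Stabilized beta-catenin acts in the nucleus with TCF and LEF factors, and in epithelia such as the compacting morula beta-catenin also links cadherins to the cytoskeleton. Some ligands, among them WNT5A and WNT11, are known mainly for branches that do not use beta-catenin, such as planar cell polarity.

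The deposited values are sequencing counts after the authors' scaling, called scaled counts below, with library totals of 10365695 to 10815554. A gene is called expressed where it had at least 10 scaled counts in each of the 6 libraries. The values are not divided by transcript length, so this threshold is easier to reach for long transcripts and levels of different genes are not ranked. The targeted genes served as a check of the labels. RBPJ stood at 447 and 391 under nonspecific siRNA and at 121 and 94.5 under RBPJ siRNA (log2 fold change -1.96, SE 0.18, limma adjusted p = 0.00143). NOTCH1 stood at 69.6 and 139.8 under nonspecific siRNA and at 48.0 and 49.5 under its own siRNA, and this log2 fold change of -1.003 missed the threshold (limma adjusted p = 0.634). After RBPJ siRNA, NOTCH1 was at 50.02 in replicate 1 and at 125 in replicate 2. Embryo markers were all expressed, 9 of 9 with a row, and POU5F1, the pluripotency factor, ran from 10911 to 12942. Of 13 cumulus, granulosa and fibroblast markers 6 were expressed, with a summed level of 714 to 864 per library. Of 8 blood and immune markers 5 were expressed, CSF1R and HBA among them, whereas PTPRC and CD3E stayed between 0 and 11.3.

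The morula expressed 42 of the 50 genes, and 7 more were low. All 11 receptors and co-receptors, both ligand secretion genes and every dishevelled and destruction complex member were among the 42. Only 5 of the 11 ligands were: WNT5A, WNT5B, WNT6, WNT10A and WNT11. After either siRNA no WNT pathway gene passed the test against the control in the fit without a replicate block, and WNT6 passed in the NOTCH1 knockdown with that block (limma adjusted p = 0.0233). The largest differences by log2 fold change among expressed ligands were those of WNT11, lower in all 4 knockdown libraries, and of WNT5B and WNT6, higher in both NOTCH1 knockdown libraries.

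WNT6 was the expressed ligand with at least 245 scaled counts in every library. Its scaled counts were 296 and 266 under nonspecific siRNA, 626 and 355 under NOTCH1 siRNA, and 424 and 245 under RBPJ siRNA. Both NOTCH1 knockdown libraries lay above both controls, while the RBPJ knockdown libraries fell on either side of them. WNT10A, whose gene lies next to WNT6 in the RefSeq annotation of assembly ARS-UCD2.0, had 29.6 and 44.7 under nonspecific siRNA, 31.7 and 60.3 under NOTCH1 siRNA, and 33.8 and 39.0 under RBPJ siRNA. For WNT10A all 3 groups overlapped.

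WNT11, a ligand known for cell movement and polarity, had 88.7 and 118 under nonspecific siRNA. It had 70.5 and 57.1 under NOTCH1 siRNA and 50.7 and 47.2 under RBPJ siRNA. The 4 knockdown libraries all lay below the lower control. WNT5A, a related polarity ligand, had 31.7 and 25.1 under nonspecific siRNA, 18.4 and 38.8 under NOTCH1 siRNA, and 26.1 and 40.0 under RBPJ siRNA, with all groups overlapping. WNT5B, its close paralogue, had 22.2 and 18.6 under nonspecific siRNA, 39.9 and 40.9 under NOTCH1 siRNA, and 24.6 and 17.4 under RBPJ siRNA. Both NOTCH1 knockdown libraries lay above the other 4.

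WNT9A was on the border, at 19.0 and 7.76 under nonspecific siRNA, 14.5 and 11.4 under NOTCH1 siRNA, and 21.9 and 31.1 under RBPJ siRNA. The other ligands were near the detection limit. WNT3 ran from 2.04 to 9.80, WNT3A from 0 to 3.77, WNT4 from 0 to 3.07, WNT7A from 0 to 3.23 and WNT7B from 0 to 8.73. For scale, 3 reads correspond to about 2.31 to 3.26 scaled counts in these libraries, so a value of 0 leaves room for a level of that size. WNT3A, a standard activator of beta-catenin signalling, and WNT9A are neighbours in the annotation and both were low. These 5 ligands near the limit were not tested, since their mean lay below 10.

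**Figure D1:**
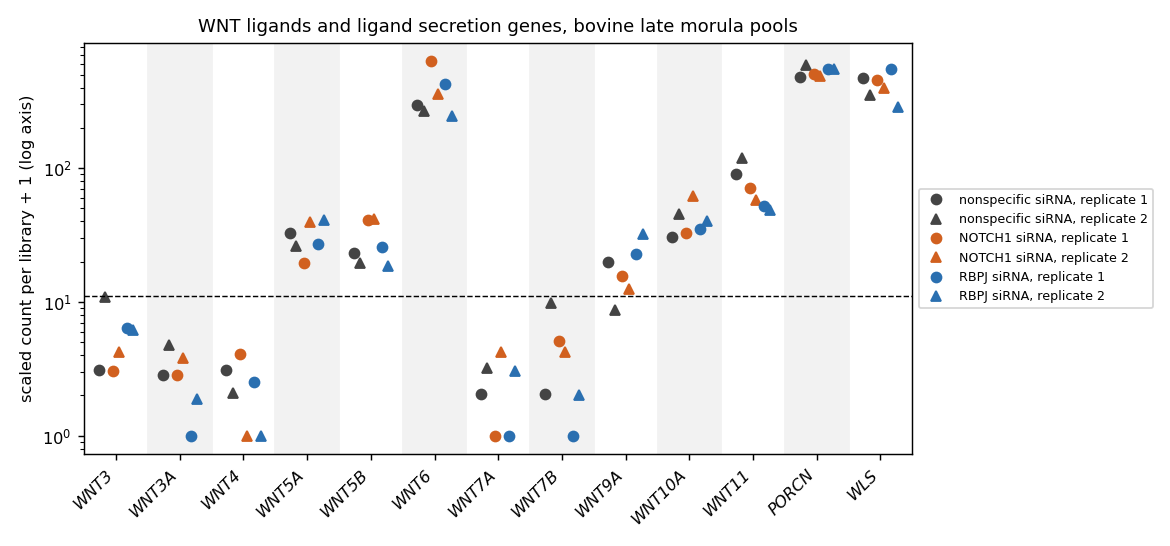
Scaled count plus 1 of each WNT ligand and of the secretion genes PORCN and WLS (log axis), with 1 point per library, coloured by siRNA group, circles for replicate 1 and triangles for replicate 2. The dashed line marks the limit of 10 scaled counts: WNT5A, WNT5B, WNT6, WNT10A and WNT11 lie above it in all 6 libraries, and WNT3, WNT3A, WNT4, WNT7A and WNT7B below it in all 6.

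Both genes needed for release of a ligand were expressed. PORCN, the acyltransferase that attaches the lipid, stood at 479 and 587 under nonspecific siRNA, 508 and 488 under NOTCH1 siRNA and 547 and 553 under RBPJ siRNA. WLS, the carrier, stood at 469.9 and 349.8, 458 and 395, and 547 and 283 in the same order. Neither set its knockdown libraries apart from the control, and the widest spread of WLS was between the replicates of the RBPJ knockdown.

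All 8 listed frizzled genes were expressed. FZD3 had 494 to 602 over the 6 libraries, FZD4 416 to 516, FZD7 368 to 507 and FZD1 159 to 215. FZD2, FZD5, FZD6 and FZD8 were at 42.9 to 119.9. These are ranges for each gene over libraries and give no order between receptors. FZD3 and FZD6 are best known from planar cell polarity, and neither differed by more than 0.10 on the log2 scale in either comparison with the control.

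FZD2 had 72.9 and 114 under nonspecific siRNA, 48.0 and 70.0 under NOTCH1 siRNA, and 75.3 and 102 under RBPJ siRNA. The NOTCH1 knockdown pair lay below the control pair by a narrow gap, between 70.0 and 72.9. FZD4 had 429.8 and 416 under nonspecific siRNA, 516 and 489.9 under NOTCH1 siRNA, and 501 and 475 under RBPJ siRNA, so that all 4 knockdown libraries were above the controls. FZD5 had 80.3 and 70.8, 118 and 88.3, and 119.9 and 78.0 in the same order, with replicate 1 the higher library in every group.

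The co-receptors LRP5 and LRP6 went separate ways by sign in the NOTCH1 knockdown. LRP5 had 476 and 411 under nonspecific siRNA, 668 and 536 under NOTCH1 siRNA, and 452 and 484 under RBPJ siRNA. LRP6 had 287 and 254, 202 and 267, and 251 and 254. For LRP5 the NOTCH1 knockdown libraries stood above all others, and for LRP6 the groups overlapped there. LGR5, a receptor for R-spondins and a known target of the pathway, was the steadiest receptor, at 113 to 126 in all 6 libraries.

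**Figure D2:**
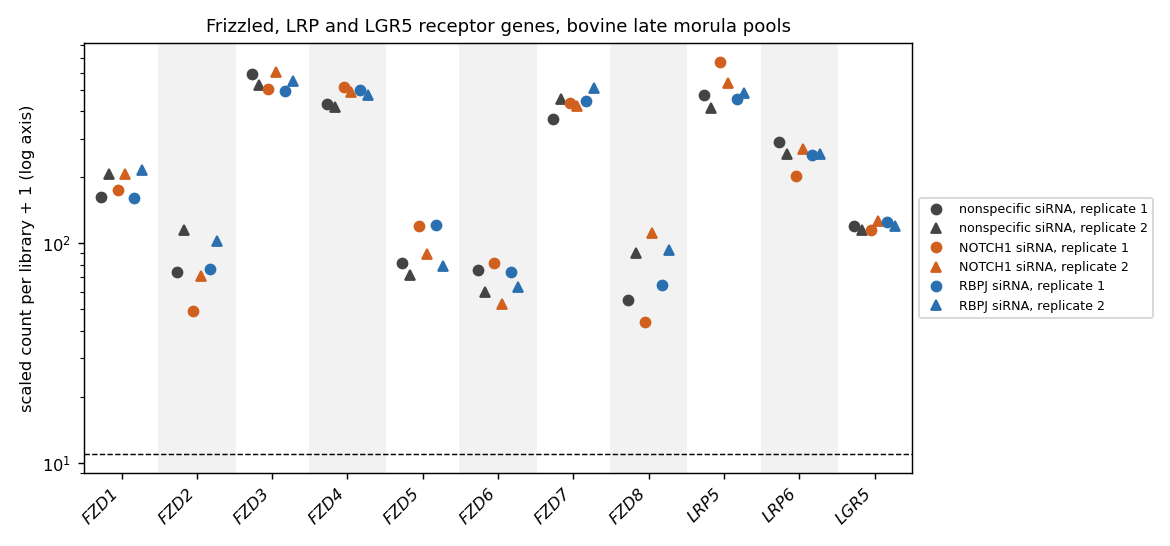
Scaled count plus 1 of the 8 frizzled genes, LRP5, LRP6 and LGR5 (log axis), with 1 point per library, coloured by siRNA group, circles for replicate 1 and triangles for replicate 2. Every point lies above the dashed line at 10 scaled counts, LGR5 has the narrowest spread (113 to 126), and FZD8 has triangles above circles in each group.

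Among secreted inhibitors, DKK1, which blocks LRP5 and LRP6, split the replicates. It had 69.3 and 145 under nonspecific siRNA, 65.0 and 62.7 under NOTCH1 siRNA, and 82.6 and 151 under RBPJ siRNA. Both NOTCH1 knockdown libraries were below all others, although replicate 1 of the control was close to them. DKK3, a divergent member of that family, had 61.9 and 48.8 under nonspecific siRNA, 60.4 and 76.6 under NOTCH1 siRNA and 43.0 and 45.2 under RBPJ siRNA. SFRP1, which binds WNT proteins directly, stayed between 18.4 and 33.8.

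ZNRF3 and RNF43 encode ubiquitin ligases that remove frizzled receptors from the surface. ZNRF3 had 404 and 471 under nonspecific siRNA, 487 and 553 under NOTCH1 siRNA, and 457 and 523 under RBPJ siRNA. RNF43 had 32.7 and 44.8, 30.7 and 28.0, and 46.1 and 26.7. Against the control, ZNRF3 was apart upward and RNF43 apart downward in the NOTCH1 knockdown, and both overlapped in the RBPJ knockdown.

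The cytoplasmic core varied little between libraries. DVL1, DVL2 and DVL3 ran from 559 to 761. AXIN1 and APC, the scaffolds of the destruction complex, ran from 1605 to 1989 and from 599.8 to 772. GSK3A and GSK3B, the kinases that phosphorylate beta-catenin, ran from 2019.6 to 2377 and from 307 to 391, and CSNK1A1, the priming kinase, from 2001 to 2245. AMER1, a membrane adaptor of the complex, ran from 119 to 151, and TNKS, which targets axin for degradation, from 337 to 399.6. The highest library was 1.12 to 1.29 times the lowest over the 8 destruction complex genes, with a median of 1.24. The same ratio had a median of 2.42 over the 6 tested ligands and 1.41 over all 12070 genes tested. It falls with level: among all tested genes with a mean of 1000 or more its median was 1.23, and among those with a mean from 10 to 100 it was 2.05.

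NKD1 and NKD2, which bind dishevelled and restrain it, were more spread over libraries. NKD1 had 107 and 139 under nonspecific siRNA, 92.0 and 123 under NOTCH1 siRNA, and 86.8 and 115 under RBPJ siRNA. NKD2 had 70.8 and 145, 81.7 and 94.8, and 79.2 and 168. In both genes replicate 2 was the higher library in each group, and the groups overlapped.

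CTNNB1 stood at 2664 and 2453 under nonspecific siRNA, 2750.1 and 2588 under NOTCH1 siRNA, and 2614 and 2578 under RBPJ siRNA. Its log2 fold change was 0.06 under NOTCH1 siRNA (95% interval -0.16 to 0.28) and 0.02 under RBPJ siRNA (-0.20 to 0.24). TCF7L1, the TCF factor known mainly as a repressor, had 655 and 596 under nonspecific siRNA, 776 and 718 under NOTCH1 siRNA, and 720.2 and 749 under RBPJ siRNA. All 4 knockdown libraries lay above the controls. TCF7L2 ran from 405 to 602 and BCL9, a co-activator that binds beta-catenin, from 205 to 279, both overlapping between groups.

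TCF7 and LEF1, often induced by the pathway itself, varied between replicates. TCF7, which was expressed, had 27.5 and 53.0, 63.4 and 29.8, and 48.2 and 59.8. LEF1, which was low, had 9.10 and 44.7 under nonspecific siRNA, 13.4 and 9.80 under NOTCH1 siRNA, and 18.6 and 5.19 under RBPJ siRNA. The spread of LEF1 rests on replicate 2 of the control: without that library its log2 fold change in the NOTCH1 knockdown was 0.30 in place of -0.78, and in the RBPJ knockdown 0.13 in place of -0.96.

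The comparison of the NOTCH1 knockdown with the control asks which WNT pathway transcripts differ when the receptor is targeted. Expressed WNT5B, WNT6 and LRP5 were higher in both knockdown libraries and WNT11 was lower, and none of the 44 tested genes passed limma's test at an adjusted p below 0.05. Over all genes tested the share passing was 0%. By sign 24 were higher and 20 lower, with a median log2 fold change of 0.04 against 0.01 for all genes. This direction turned when 1 library was left out: without replicate 1 of the control 20 of 44 were higher (median -0.02), and without replicate 2 of the NOTCH1 knockdown 21 of 44 (median -0.04). At an unadjusted p below 0.05 there were 4 of 44 (9.09%) against 7.29% of all genes. The knockdown libraries did not overlap the control for 14 of 44 (31.8%), against 35.9% of all genes, so that this count lay below the background. Upward 9 of the 44 were apart, against 18.6% of all genes, and downward 5 of the 44, against 17.2%.

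LRP5 had the smallest p, with a log2 fold change of 0.44 (SE 0.15, limma adjusted p = 0.555). WNT6 followed at 0.75 (SE 0.27, limma adjusted p = 0.566). Its value was 0.34 without replicate 1 of the NOTCH1 knockdown and 1.16 without replicate 2 of that group. WNT11 had -0.68 (SE 0.28) and WNT5B 0.96 (SE 0.39), each with a limma adjusted p of 0.631, and FZD2 had -0.65 (SE 0.31, limma adjusted p = 0.703). For WNT5B the mean was 1.98 times that of the control, and for WNT11 0.618 times.

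Some trophectoderm genes shared their highest and lowest libraries with WNT6. CDX2, GATA3 and KRT18 were, like WNT6, highest in replicate 1 of the NOTCH1 knockdown and lowest in replicate 2 of the RBPJ knockdown. KRT8 was lowest there too and highest in replicate 1 of the RBPJ knockdown. Between these extremes CDX2 kept another order: under nonspecific siRNA it had 654 and 744, where WNT6 had 296 and 266. GATA3 and KRT18 fell from replicate 1 to replicate 2 of the control, as WNT6 did. GATA3 had 577 and 515 under nonspecific siRNA, 1018 and 856 under NOTCH1 siRNA, and 737 and 391 under RBPJ siRNA. The share of all genes with the same highest and lowest libraries as WNT6 is not given here. The match may therefore not be particular to trophectoderm genes. The part of the trophectoderm genes in the WNT6 values was not tested.

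**Figure D3:**
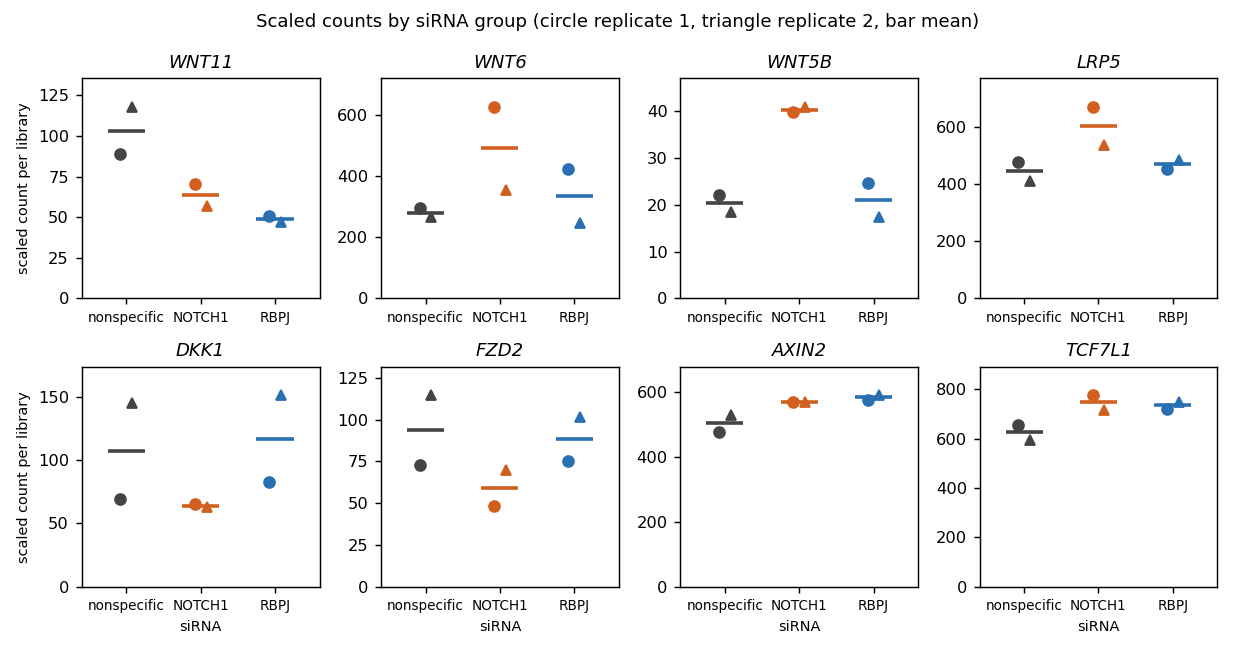
Scaled counts of 8 WNT pathway genes by siRNA group, with circles for replicate 1, triangles for replicate 2 and a bar at the mean of the 2 libraries. WNT11 is lower in all 4 knockdown libraries than in the control (88.7 and 118), AXIN2 and TCF7L1 are higher in all 4, and WNT5B and LRP5 are higher in both NOTCH1 knockdown libraries than in the other 4.

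The comparison of the RBPJ knockdown with the control asks the same of the DNA-binding factor. WNT11 had the lowest log2 fold change among the 44 tested WNT pathway genes, at -1.05 (SE 0.28, 95% interval -1.65 to -0.45), with a mean 0.474 times that of the control. Its unadjusted p was 0.00252, and over all genes it missed the threshold (limma adjusted p = 0.983). None of the 44 passed, and the share of all genes passing was 0.00829%, which is RBPJ itself. By sign 29 were higher and 15 lower, with a median log2 fold change of 0.06 against 0.00 for all genes. Without replicate 1 of the control 22 of 44 were higher (median 0.01), and without its replicate 2 the count was 32 (median 0.12). WNT11 was the 1 of 44 (2.27%) with an unadjusted p below 0.05, against 4.34% of all genes. The groups did not overlap for 11 of 44 (25.0%), against 32.1% of all genes. Upward 7 of the 44 were apart, against 15.3% of all genes, and downward 4 of the 44, against 16.8%.

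WNT9A had a log2 fold change of 1.03 under RBPJ siRNA with an SE of 0.53 that spans much of it. TCF7L1 had 0.23 (SE 0.12), AXIN2 0.21 (SE 0.13) and FZD4 0.21 (SE 0.13), and each had a limma adjusted p of 0.983. AXIN2 had 476 and 531 under nonspecific siRNA, 571 and 569 under NOTCH1 siRNA, and 577 and 590.1 under RBPJ siRNA. AXIN2, FZD4 and TCF7L1 were the 3 tested genes of the pathway with all 4 knockdown libraries above both controls, a pattern of 7.98% of all genes. WNT11 was the 1 gene with all 4 below, a pattern of 7.93% of all genes. The 2 comparisons share the control libraries, so these patterns are not independent between knockdowns.

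Like WNT11, oocyte and maternal transcripts had lower summed levels in all 4 knockdown libraries. The summed level of 10 such markers was 409 and 539 under nonspecific siRNA, 165 and 325 under NOTCH1 siRNA, and 235 and 351 under RBPJ siRNA. By sign 10 of 10 were lower in the NOTCH1 knockdown and 9 of 10 under RBPJ siRNA, and none passed limma's test. In the NOTCH1 knockdown 7 of 10 lay below both controls, against 17.2% of all genes, and in the RBPJ knockdown 5 of 10, against 16.8%. The markers were listed with earlier results of these data known, and both comparisons share the control libraries, so these counts are not a test. BTG4, at 124, and GDF9, at 20.5, lay above both controls in replicate 2 of the RBPJ knockdown. GDF9 also did so in replicate 2 of the NOTCH1 knockdown, at 15.1 against 14.8 and 12.0 under nonspecific siRNA. The part of the oocyte and maternal transcripts in the WNT11 values was not tested.

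The intervals show what size of change these libraries could have hidden. A 95% interval of the log2 fold change within -1 and 1 leaves out a 2-fold change either way. In the NOTCH1 knockdown 30 of 44 tested genes (68.2%) had such an interval, against 78.1% of all genes tested. In the RBPJ knockdown 36 of 44 (81.8%) did, against 79.8%. All 8 destruction complex genes met this in both comparisons. Of the 6 tested ligands none met it in the NOTCH1 knockdown and 3 did in the RBPJ knockdown, so for the rest a 2-fold change lay inside the interval.

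**Figure D4:**
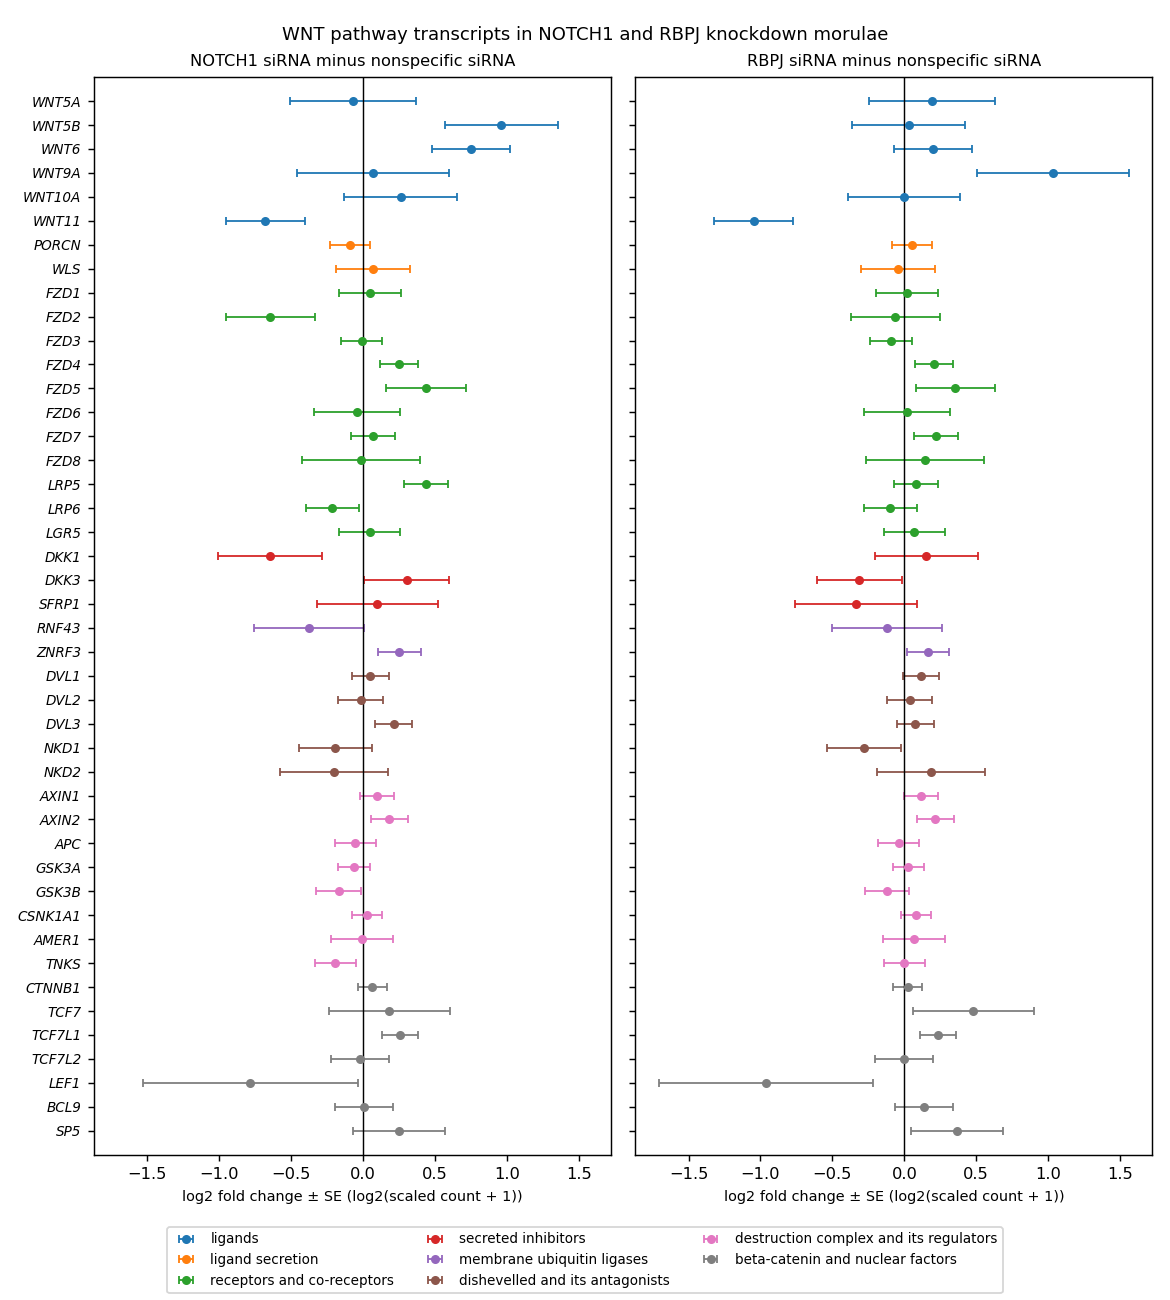
Log2 fold change on the log2(scaled count + 1) scale of the 44 tested WNT pathway genes in the NOTCH1 knockdown (left) and the RBPJ knockdown (right), against the same control libraries. Points are limma estimates, bars are 1 SE and colours are roles; WNT11 lies at -0.68 and -1.05, destruction complex genes lie between -0.19 and 0.21, and no gene passed at an adjusted p below 0.05.

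Set directly against each other, the NOTCH1 and RBPJ knockdowns did not differ past the threshold in any of the 44 genes, and 0.00829% of all genes passed, again RBPJ alone. The smallest p belonged to WNT5B, with a log2 difference of 0.93 (SE 0.39, NOTCH1 knockdown higher, limma adjusted p = 0.999). LRP5 followed at 0.36, DKK1 at -0.80, DKK3 at 0.61 and WNT6 at 0.55, each with a limma adjusted p of 0.999. DKK1 was at 65.0 and 62.7 under NOTCH1 siRNA and 82.6 and 151 under RBPJ siRNA. The difference of DKK1 had a 95% interval of -1.58 to -0.01.

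Replicates differed in a shared way for part of the pathway. In 12 of 44 genes (27.3%) replicate 2 exceeded replicate 1 in all 3 groups, against 18.2% of all genes tested. They were WNT10A, FZD1, FZD2, FZD8, SFRP1, ZNRF3, NKD1, NKD2, GSK3A, CSNK1A1, TCF7L2 and BCL9. The reverse held for 6 of 44 (13.6%), against 19.5% of all genes, and these were WNT6, WLS, FZD4, FZD5, FZD6 and CTNNB1. The labels do not say what a replicate number stands for.

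Transcription downstream was read from 20 genes known as beta-catenin targets in other settings, 8 of which are among the 50. Of the 20, 17 were tested and none passed. By sign 10 were higher and 7 lower in the NOTCH1 knockdown, where 51.1% of all genes were higher. In the RBPJ knockdown 9 were higher and 8 lower, against 49.7% of all genes higher. The groups did not overlap for 9 of 17 (52.9%) in the NOTCH1 knockdown, against 35.9% of all genes. In the RBPJ knockdown this held for 4 of 17 (23.5%), against 32.1%. At limma's unadjusted p below 0.05 there were 2 of 17 (11.8%), against 7.29%, and in the RBPJ knockdown 0, against 4.34%. The list was chosen with earlier results known, so these shares are not a test. MYC, a growth regulator, had 93.0 and 115 under nonspecific siRNA, 61.2 and 46.5 under NOTCH1 siRNA and 137 and 102 under RBPJ siRNA (log2 fold changes -0.94 and 0.19, limma adjusted p = 0.461 and 0.995). CDX2, a trophectoderm factor, had 654 and 744, 976 and 832, and 682 and 624. APCDD1, a membrane inhibitor of the pathway, had 43.3 and 71.9, 90.9 and 87.2, and 83.0 and 60.6. SP5, a close responder to beta-catenin, had 50.8 and 72.9, 82.7 and 63.6, and 102 and 60.6, with all groups overlapping. NOTUM, an enzyme that strips the lipid from WNT proteins, was below the test filter at 3.27 to 16.1, and TBXT, a mesoderm factor, stayed at 0 to 3.08.

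**Figure D5:**
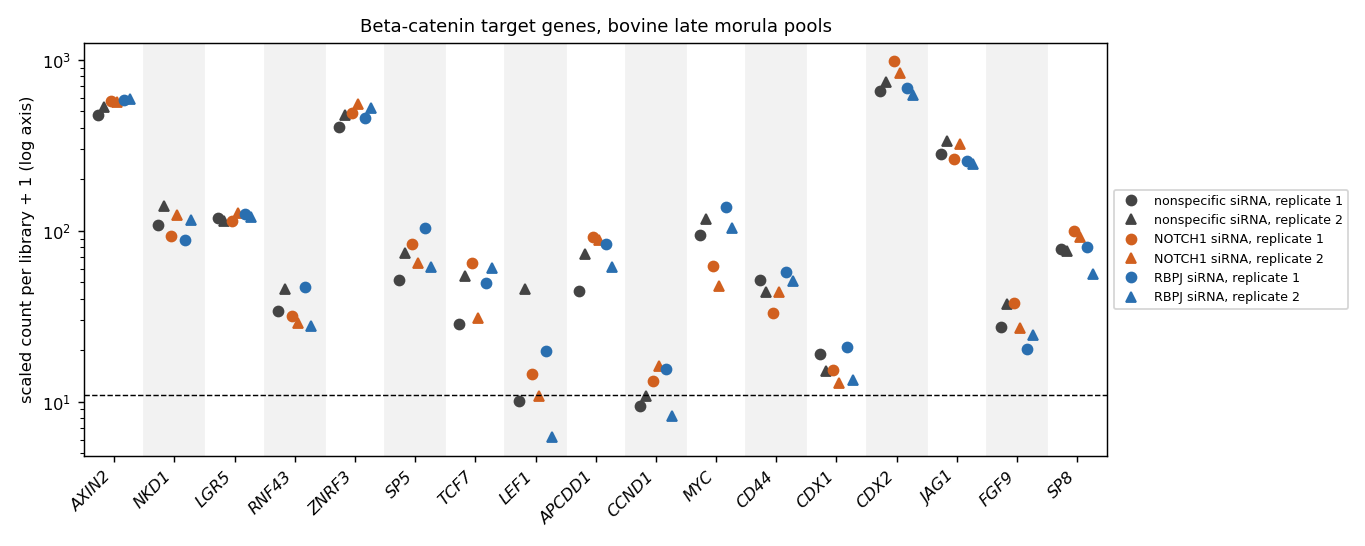
Scaled count plus 1 of the 17 tested beta-catenin target genes (log axis), with 1 point per library, coloured by siRNA group, circles for replicate 1 and triangles for replicate 2; the dashed line marks 10 scaled counts. AXIN2 is higher in all 4 knockdown libraries, MYC is lower in both NOTCH1 knockdown libraries (61.2 and 46.5) than in the other 4, and LEF1 has a single high library, replicate 2 of the control at 44.7.

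A further 89 genes of the pathway were examined as a second list, of which 63 were expressed and 68 tested. None passed in either comparison. In the NOTCH1 knockdown 38 were higher and 30 lower by sign, with a median log2 fold change of 0.04, and in the RBPJ knockdown 35 were higher and 33 lower, with a median of 0.02. At an unadjusted p below 0.05 there were 9 of 68 (13.2%) in the NOTCH1 knockdown, against 7.29% of all genes. In the RBPJ knockdown there were 8 of 68 (11.8%), against 4.34%. The groups did not overlap for 25 of 68 (36.8%) in the NOTCH1 knockdown, against 35.9% of all genes. In the RBPJ knockdown this held for 21 of 68 (30.9%), against 32.1%. Both comparisons share the control libraries. The list was chosen with earlier results of these data known, so these shares are not a test of the pathway. The ligands and agonists of that list that the morula expressed were WNT8A, RSPO2 and RSPO3. AMER2, a paralogue of AMER1, had the smallest p in the NOTCH1 knockdown, at 421 and 448 under nonspecific siRNA and 861 and 625 after the siRNA (log2 fold change 0.76, SE 0.16, limma adjusted p = 0.346). RSPO3, an R-spondin that strengthens WNT signals, had 440.4 and 455 under nonspecific siRNA and 576 and 636 after the siRNA, and CELSR2, a polarity cadherin, had 94.2 and 118 and then 165 and 174.

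In the RBPJ knockdown the smallest p among those 89 belonged to SOX17, FZD10 and WNT8A. SOX17, an endoderm factor that can bind beta-catenin, had 91.9 and 133 under nonspecific siRNA and 161 and 208 after the siRNA (log2 fold change 0.72, SE 0.24, limma adjusted p = 0.983). FZD10 had 396 and 413 under nonspecific siRNA and 507 and 564 after the siRNA. WNT8A had 158 and 128 under nonspecific siRNA, 100.8 and 84.3 under RBPJ siRNA, and 92.9 and 101.3 under NOTCH1 siRNA, below both controls in all 4 knockdown libraries.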

How the data were processed

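The submitters' processing notes list Salmon 0.14.1 and DESeq2 as tools and ARS-UCD1.2 as genome build, without saying what each did; for the annotation and any filters, the sources used here give nothing. The deposited table holds a signal per gene and library, judged from its values to be estimated counts that the authors scaled per library: 81.8% to 83.5% of low values lay within 0.1 of a whole multiple of 1 step per library, too few for a count test. The steps give an approximate depth of 9650000 to 13600000 reads. Left out were 2551 of 17922 rows that carry no symbol and hold 6.20% to 7.22% of the summed values, and of 57 repeated symbols the row with the higher mean was kept. Values were analysed as log2(value + 1), which understates the change of low genes, for the 12070 genes with a mean of at least 10. limma 3.58.1 in R 4.3.3 fitted group means over all 6 libraries (3 residual degrees of freedom, variance trend, no replicate block), with Benjamini-Hochberg adjustment over all genes tested and a threshold of 0.05. The fit was run on simulated counts whose spread was set by level alone, without replicate effects. That run does not measure the power or error of the fit in these libraries. Named were the 5 pathway genes, and the 3 genes of the second list, with the smallest p per comparison; the other values describe each role, and the text on MYC, CDX2, GATA3 and the genes of the closing section was chosen after their values were seen. Members and lists were chosen with earlier results of these data known. Neighbouring genes are from RefSeq (ARS-UCD2.0), which differs in build, so no coordinates are given. Overlapping, antisense and near-identical genes can share reads. Plots were made in Python 3.11.15 using matplotlib 3.10.9.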

Additional observations from a re-analysis of the deposited data

How the results depend on the processing

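Of 232 recomputed log2 fold changes of the named WNT pathway genes, none changed sign, 231 stayed on the same side of the threshold and 1 crossed it. Tried were 2 other pseudocounts (0.1 and 10), scaling by median of ratios or by quantiles, fits to the compared groups alone, variance moderation that was robust or lacked the trend, filters at 0 or 100, leaving out single libraries, and a replicate block; genes with a mean below 100 have no value under the filter of 100. Filters, variance moderation, the replicate block and fits to the compared groups alone cannot change an estimate. Nor can omitting a library outside the comparison. Named genes had the smallest p, and their groups did not overlap, except for WNT6 between the knockdowns. Where groups do not overlap, leaving out 1 library cannot turn the sign. Genes that were not named could turn, as LEF1 did. With the replicate block WNT6 passed in the NOTCH1 knockdown (limma adjusted p = 0.0233), so that 1 WNT pathway gene was called in place of 0; over the other alternatives no named gene passed. The replicate numbers may not pair the libraries: the correlation of replicate differences across genes was 0.17 to 0.21 between groups, with 2 numbers only and no label saying what they share. The block called 138 genes in place of 0 in the NOTCH1 knockdown (880 had an unadjusted p below 0.05 in limma without it), 12 in place of 1 in the RBPJ knockdown and 15 in place of 1 between the knockdowns. Without the variance trend 0 genes were called in the RBPJ knockdown and 0 between the knockdowns. Omitting each library in turn gave 0 to 1 genes in the NOTCH1 knockdown, 1 to 3 in the RBPJ knockdown and 0 to 3 between the knockdowns, with no WNT pathway gene among them. The 1 and the 3 called against the control came without replicate 2 of the control, and between the knockdowns the 0 came without replicate 1 of the NOTCH1 knockdown and the 3 without replicate 1 of the RBPJ knockdown; the cause of these shifts was not tested. The number of expressed pathway genes stayed within 1.5 times of 42 at limits of 5 and 20 and with a mean of 10. The list of expressed ligands was less stable. WNT5A and WNT5B, with lowest libraries at 18.4 and 17.4, were not expressed at the limit of 20. WNT9A, with its lowest library at 7.76 and a mean of 17.6, was expressed at the limit of 5 and by the mean.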

Other observations

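Of 16 other nuclear factors of the pathway, 11 were higher and 5 lower by sign in each comparison with the control, and none passed limma's test. Over all genes 51.1% were higher in the NOTCH1 knockdown and 49.7% in the RBPJ knockdown. The control libraries are shared by both comparisons, so the counts are not independent. The 16 factors include the Groucho corepressors, which hold TCF targets silent. TLE2, TLE3, TLE4 and TLE5 are given as values chosen after these were seen. TLE1 of the same list is left out and its direction is not given here, so they do not stand for the whole family. Of the 16 factors 5 lay above both controls in the NOTCH1 knockdown and 3 below, against 18.6% and 17.2% of all genes. In the RBPJ knockdown 6 lay above and 2 below, against 15.3% and 16.8%. TLE3 had 1123 and 1101 under nonspecific siRNA, 1427 and 1316 under NOTCH1 siRNA and 1394 and 1331 under RBPJ siRNA, so all 4 knockdown libraries were above the controls. TLE2 had 145 and 122, 208 and 179, and 193 and 161, and TLE4 had 591 and 566, 694 and 653, and 639 and 616, with the same separation, which 7.98% of all genes tested showed. TLE5, a short family member, had 264 and 148, 277 and 212, and 231 and 195, and overlapped.

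The R-spondins RSPO2 and RSPO3 did not go one way, nor did the receptors PTK7 and FZD9. PTK7, a co-receptor of planar cell polarity, had 2699.7 and 2982 under nonspecific siRNA, 3426 and 3390.1 under NOTCH1 siRNA and 3078 and 3758 under RBPJ siRNA. For PTK7 all 4 knockdown libraries lay above both controls, as for 7.98% of all genes tested. RSPO2 had 121 and 85.1, 51.1 and 71.1, and 77.6 and 44.1, below both controls in all 4 knockdown libraries, as for 7.93% of all genes tested, while RSPO3 was above them, with 549.6 and 543 under RBPJ siRNA. FZD9 had 31.7 and 29.4, 14.3 and 20.5, and 18.5 and 20.5. Like RSPO2, FZD9 was below both controls in all 4 knockdown libraries, a pattern of 7.93% of all genes tested. The 14 planar cell polarity genes had log2 fold changes from -0.28 to 0.68 in the NOTCH1 knockdown (8 higher and 6 lower by sign) and from -0.06 to 0.48 in the RBPJ knockdown (10 higher and 4 lower), and none passed limma's test.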
